A study of Mus musculus with 20 samples.

Results

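The 35 genes described here form the acute-phase response programme of the liver: serum amyloid A, pentraxins, acid glycoproteins, fibrinogen chains, iron- and haem-binding proteins, metallothioneins, protease inhibitors, and the cytokine receptors and signal carriers above them. They were chosen by symbol, and all 35 were present among the 16115 genes of the deposited table, across 18 liver libraries. The libraries came from male mice whose livers were taken after 18 months of treatment, in a mouse model of Fanconi anaemia. Fancd2, the mutated gene, encodes a protein of the pathway that repairs crosslinks between DNA strands, and Fancd2 itself was not analysed here. Metformin lowers blood glucose, and oxymetholone is a synthetic androgen.

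Groups are defined by the labels of genotype and treatment. Mutant mice (d2-/-) were given metformin with oxymetholone (met+oxm, 3 libraries), metformin alone (met, 3 libraries), oxymetholone alone (oxm, 5 libraries) or no drug (3 libraries), and untreated wild-type mice (wt) gave 4 libraries. All groups share the tissue, the sex and the 18 months, and no labelled wild-type sample received a drug. Dose, route, age at the start and strain are not given in the labels. Of the 20 labelled samples, replicate 1 of the untreated mutants and replicate 2 of the metformin mutants were left out, as not analysed here. The labels do not say that each library is a separate animal, so p-values measure the spread between these libraries.

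The acute-phase response is the change in plasma proteins made by hepatocytes during inflammation or injury. Interleukin-1 and interleukin-6 reach the hepatocyte, where NF-kB, STAT3 and C/EBP factors drive the genes of the positive acute-phase proteins, while albumin and other negative acute-phase proteins decline. In mice serum amyloid A is the steepest of these responses, and C-reactive protein changes little.

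Promoter windows of RefSeq, from 250 bases before to 50 bases after each annotated start on GRCm38.p6, were matched by symbol for 27 of the 35 genes (31 windows). Hp, Orm1, Serpina3m, Serpina3k, Lbp, Cd14, Fgl1 and C4b had no entry. The C/EBP motif TTGCNNAA, searched on both strands, was found in 14 of 31 windows (45.16%), against 10.8% of all 32851 windows. It was present in Saa1, Saa2, Saa3, Saa4, Orm2, Orm3, Fga, Fgb, Hpx, Lcn2, Cp, Steap4, Mt2 and Il1r1. The STAT motif TTCNNNGAA was in 6 windows (19.35%, against 8.298% of all windows), the interleukin-6 response motif CTGGGAA in 9 (29.03%, against 11.14%), the glucocorticoid half-site TGTTCT in 8 (25.81%, against 18.97%) and the NF-kB motif in 2 (6.452%, against 4.505%). The interleukin-6 response windows belonged to 7 of the 27 genes, since Il1rn had several windows, and overlapping windows of Il1rn shared a match. The metal response motif was searched as TGCNCNC, a loose pattern with any base at position 4, and was in 14 windows of 13 genes (45.16% of windows, against 51.03%). The stricter form with A or G at position 4 was not counted. Matches to different motifs overlapped within the windows of these genes in 1 window of Il1r1 alone, where an NF-kB and a metal response match share 6 bases. A match is a description of letters and not of a bound site. Shown first are windows of 4 genes with the C/EBP motif in capitals, from both serum amyloid genes with the widest ranges below, from an acid glycoprotein and from a fibrinogen chain. They are Saa1 at chr7:46742931-46743230 (minus strand), Saa2 at chr7:46751583-46751882 (plus), Orm2 at chr4:63362199-63362498 (plus) and Fgb at chr3:83049814-83050113 (minus).
Saa1: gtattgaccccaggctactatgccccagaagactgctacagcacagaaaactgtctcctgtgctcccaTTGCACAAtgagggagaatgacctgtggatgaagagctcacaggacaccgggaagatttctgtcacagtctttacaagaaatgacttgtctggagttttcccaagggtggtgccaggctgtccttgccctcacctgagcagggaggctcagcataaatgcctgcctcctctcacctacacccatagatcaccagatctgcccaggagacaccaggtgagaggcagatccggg
Saa2: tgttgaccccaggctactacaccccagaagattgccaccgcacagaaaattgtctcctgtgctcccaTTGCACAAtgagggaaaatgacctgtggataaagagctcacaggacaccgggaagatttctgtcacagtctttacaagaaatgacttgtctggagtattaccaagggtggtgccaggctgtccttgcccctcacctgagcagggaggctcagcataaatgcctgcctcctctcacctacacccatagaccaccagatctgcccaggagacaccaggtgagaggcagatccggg
Orm2: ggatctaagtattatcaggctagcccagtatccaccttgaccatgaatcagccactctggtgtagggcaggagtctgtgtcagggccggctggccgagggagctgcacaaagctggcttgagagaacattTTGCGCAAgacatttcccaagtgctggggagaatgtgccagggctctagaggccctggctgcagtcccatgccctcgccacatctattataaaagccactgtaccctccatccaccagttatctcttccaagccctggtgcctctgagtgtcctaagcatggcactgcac
Fgb: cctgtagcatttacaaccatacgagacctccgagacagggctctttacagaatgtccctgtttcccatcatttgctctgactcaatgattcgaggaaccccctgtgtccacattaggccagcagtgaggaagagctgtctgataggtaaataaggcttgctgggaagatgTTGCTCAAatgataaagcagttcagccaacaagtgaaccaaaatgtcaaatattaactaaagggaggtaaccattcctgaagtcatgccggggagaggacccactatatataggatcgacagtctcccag
The motif began 182 bases before the start in Saa1, 183 before it in Saa2, 120 in Orm2 and 80 in Fgb. The windows of Saa1 and Saa2 were 95.3% identical (287 of 301 aligned columns).

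Both metallothionein windows are shown because Mt1 and Mt2 were among the 4 genes with the most negative log2 differences of metformin livers from untreated mutants. Capitals mark the loose metal response pattern TGCNCNC, with 3 matches in Mt1 at chr8:94178839-94179138 (plus strand) and 6 in Mt2 at chr8:94172368-94172667 (plus strand). In Mt2 the matches GGGAGCA, read on the other strand, and TGCTCTC have T at position 4 of the pattern and would miss its stricter form.
Mt1: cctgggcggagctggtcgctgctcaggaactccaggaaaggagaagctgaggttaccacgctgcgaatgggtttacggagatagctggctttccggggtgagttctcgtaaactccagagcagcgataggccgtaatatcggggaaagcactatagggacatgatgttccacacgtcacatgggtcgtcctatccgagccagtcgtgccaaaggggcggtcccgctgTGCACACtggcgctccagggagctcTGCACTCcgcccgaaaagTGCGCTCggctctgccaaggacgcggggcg
Mt2: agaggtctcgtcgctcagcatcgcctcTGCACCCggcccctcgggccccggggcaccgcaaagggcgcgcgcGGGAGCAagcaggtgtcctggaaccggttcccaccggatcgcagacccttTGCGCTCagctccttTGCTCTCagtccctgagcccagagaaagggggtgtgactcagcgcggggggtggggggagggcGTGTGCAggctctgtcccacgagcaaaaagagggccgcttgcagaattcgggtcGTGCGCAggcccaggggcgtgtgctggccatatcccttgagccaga

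Levels are given as CPM, the counts of a gene relative to library size after scaling by 1 factor per library. Total counts were 20.2 to 32.7 M per library, and a gene was called where the adjusted p of edgeR's quasi-likelihood test, over all 16115 genes, was at most 0.05. All 6 hepatocyte markers were expressed (summed level 34851 to 93968 CPM per library). In RNA of whole liver, fewer cells of a type and less RNA per cell cannot be told apart. Near-identical copies make some values uncertain, since the handling of reads shared between genes is not given in the sources used here: transcripts were 93.9% identical for Saa1 and Saa2, 91.0% for Orm1 and Orm2, 86.1% for Orm1 and Orm3, and 95.8% for C4b and C4a.

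Acute-phase levels differed widely between libraries of the same group, and a few libraries led across most genes. Oxymetholone replicate 4 held the highest level of all 18 libraries for 23 of the 35 genes, and untreated mutant replicate 2 for another 7. Within groups the same libraries led again: oxymetholone replicate 4 was the highest of its group for 31 genes, untreated mutant replicate 2 for 31, replicate 1 of the mice given both drugs for 29 and wild-type replicate 3 for 25. In the metformin group no library led throughout, with 4, 16 and 15 genes highest in replicates 1, 3 and 4. The 35 genes took 26.7% of all counts in oxymetholone replicate 4, 21.0% in untreated mutant replicate 2 and 10.8% in wild-type replicate 3, and 3.12 to 8.45% in the other 15 libraries.

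**Figure D1:**
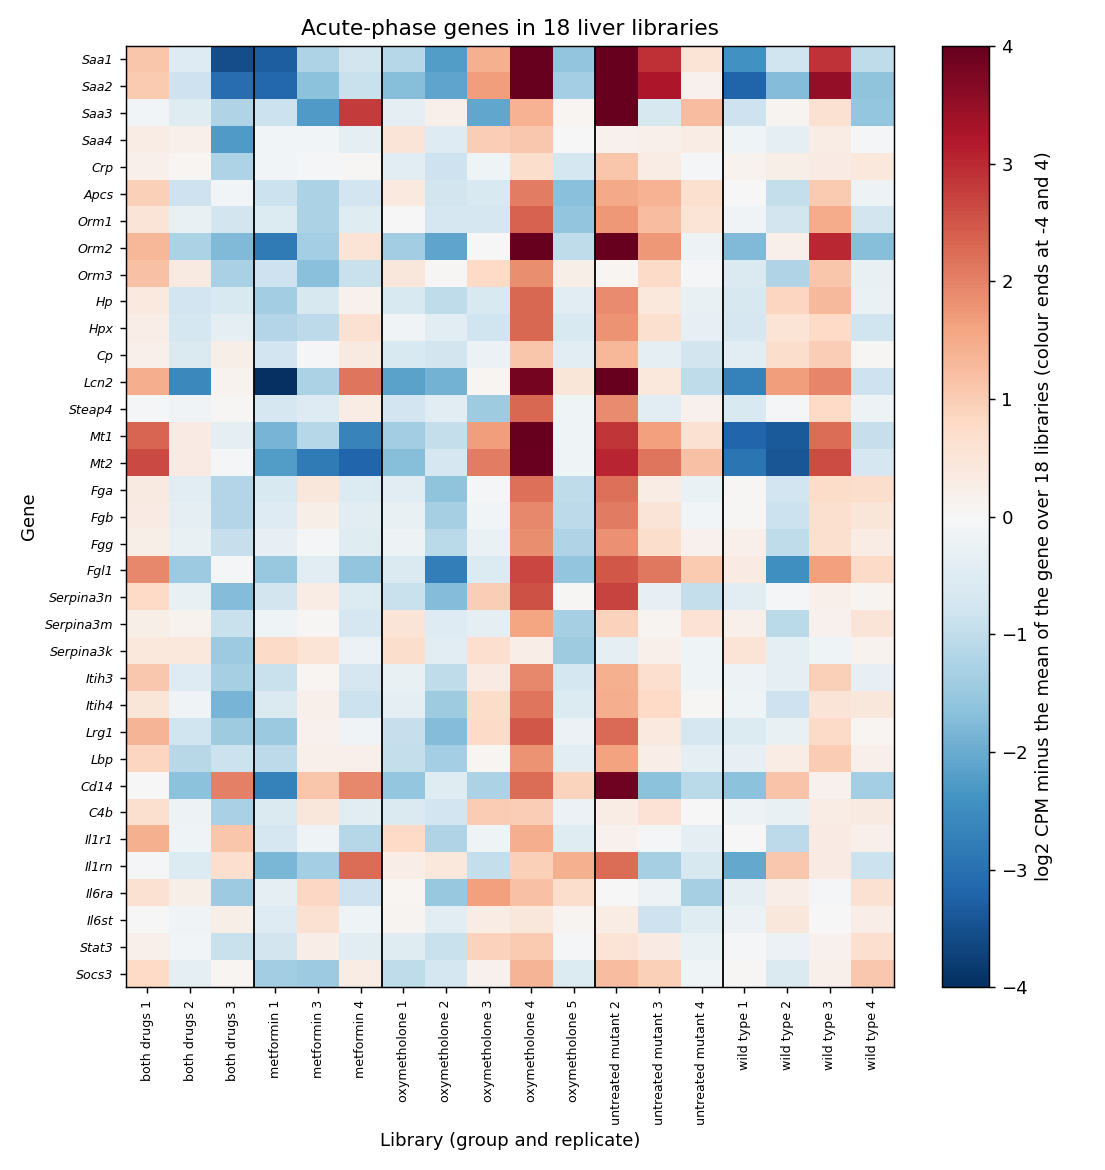
Log2 CPM of each acute-phase gene minus its mean over 18 libraries (colour, ending at -4 and 4), with genes in lines ordered by role and libraries in columns ordered by group. Oxymetholone replicate 4 and untreated mutant replicate 2 are red over most genes, and wild-type replicate 3 is red mainly in Saa1, Saa2, Orm2, Mt1 and Mt2.

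The spread within groups was wide for most of these genes. The median standard deviation of log2 CPM within groups was 0.98 over the 35 genes, against 0.51 over all genes and 0.41 over the 9073 genes at least as high as the lowest of the 35. Of the 35, 34 lay above the 50th percentile of all genes in this spread and 17 above the 90th. Il6st, the shared signalling receptor of the interleukin-6 family, was the exception at the 33.7th percentile, with a 2.74-fold range over 18 libraries. The widest ranges were 813-fold in Saa2, 520-fold in Saa1, 347-fold in Lcn2, 220-fold in Mt1, 165-fold in Mt2 and 155-fold in Orm2.

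**Figure D2:**
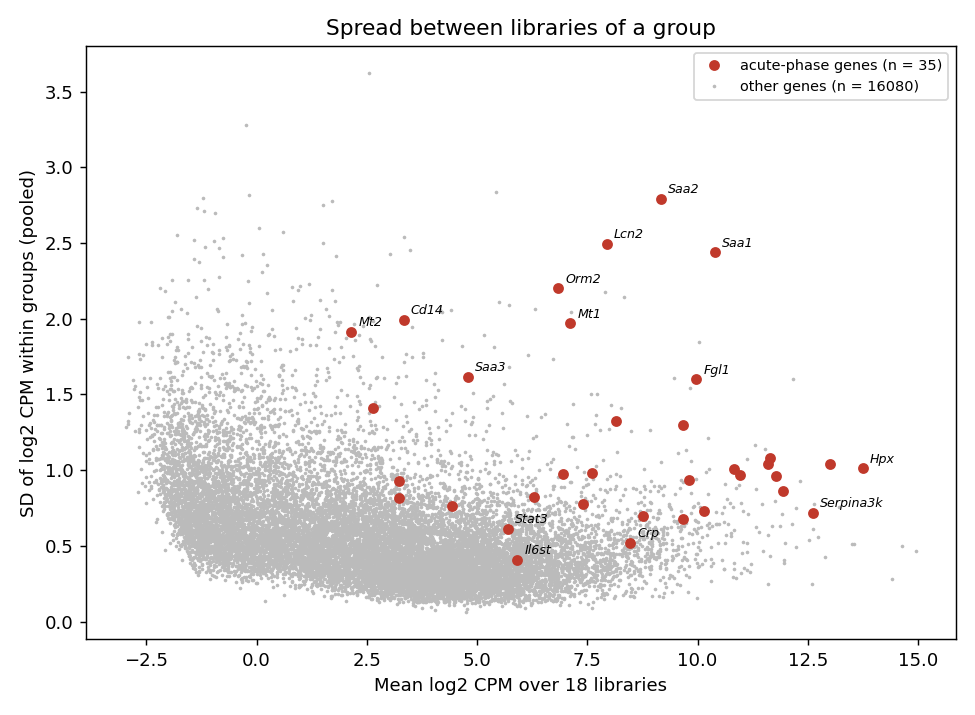
Pooled standard deviation of log2 CPM within groups (vertical) against mean log2 CPM over 18 libraries (horizontal), with the 35 acute-phase genes in red and the other 16080 genes in grey. Saa2, Lcn2, Saa1, Orm2, Mt1 and Cd14 lie above nearly all genes of their level, while Il6st and Crp lie among the bulk.

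Saa1 and Saa2 encode the inducible serum amyloid A proteins, which bind to high-density lipoprotein in plasma. Saa1 was at 2929, 952 and 116 CPM in mutants given both drugs, 137, 573 and 811 CPM in metformin mutants, and 617, 283, 3637, 60444 and 453 CPM in oxymetholone mutants, against 23665, 10131 and 1963 CPM in untreated mutants and 249.6, 768, 10016 and 661 CPM in wild-type mice. Saa2 was at 1181, 324 and 69.1 CPM with both drugs, 65.8, 184 and 308 CPM with metformin and 178, 134, 1853, 51151 and 222 CPM with oxymetholone, against 20401, 5477 and 654 CPM in untreated mutants and 62.9, 174, 6579 and 191 CPM in wild-type mice. The 3 metformin libraries lay below the 3 untreated mutant libraries for both genes, whereas every other pair of groups overlapped. Oxymetholone replicate 4 and wild-type replicate 3 were the highest of their groups. Oxymetholone replicate 3 came next in its group, at 3637 CPM in Saa1 and 1853 CPM in Saa2. The ratio of Saa2 to Saa1 in CPM was 0.846 in oxymetholone replicate 4, 0.862 in untreated mutant replicate 2 and 0.657 in wild-type replicate 3, and 0.227 to 0.594 in the other 15 libraries. The highest of those 15, at 0.594, was replicate 3 of the mice given both drugs, which had the lowest Saa1 of all 18 libraries.

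Saa3, which is made by macrophages and other cells as well as hepatocytes, followed Saa1 and Saa2 in part. Within each group it was highest in the same library as those genes. Below that library its order differed in all groups but the one given both drugs, and its whole range was 76.0-fold. It was at 25.5, 19.9 and 12.04 CPM with both drugs, 15.3, 5.75 and 192 CPM with metformin and 21.3, 31.9, 6.57, 72.4 and 29.0 CPM with oxymetholone, against 436, 17.7 and 64.6 CPM in untreated mutants and 15.7, 29.6, 41.7 and 9.41 CPM in wild-type mice. All pairs of groups overlapped, and the highest values were in untreated mutant replicate 2 and metformin replicate 4. Saa4, the constitutive member of the family, stayed within 301 to 913 CPM in 17 libraries and was at 89.0 CPM in replicate 3 of the mice given both drugs.

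Crp and Apcs encode the pentraxins C-reactive protein and serum amyloid P, of which serum amyloid P is the acute-phase reactant of mice. Apcs was at 3887, 1118 and 1847 CPM with both drugs, 1099, 837 and 1177 CPM with metformin and 2608, 1195, 1294, 8151 and 628 CPM with oxymetholone, against 5703, 5188 and 3120.2 CPM in untreated mutants and 1986, 1036, 4128 and 1725 CPM in wild-type mice. Every metformin library was below every untreated mutant library. Crp had a 5.04-fold range over 18 libraries, and its metformin values of 328, 332 and 369 CPM lay below the wild-type values of 393, 419, 441 and 469 CPM without overlap.

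Orm1, Orm2 and Orm3 encode the alpha-1-acid glycoproteins, carriers of drugs and lipids in plasma. Orm1 was at 4388, 2516 and 1838 CPM with both drugs, 2100.3, 1292 and 2188 CPM with metformin and 3096, 1932, 1928, 15812 and 1032 CPM with oxymetholone, against 10156, 7206 and 4527 CPM in untreated mutants and 2764, 1841, 8531 and 1853 CPM in wild-type mice. The metformin libraries and those given both drugs all lay below every untreated mutant library. Orm2 ran from 16.1 CPM in metformin replicate 1 to 2487 CPM in oxymetholone replicate 4, and its ratio to Orm1 was 0.157 in oxymetholone replicate 4 and 0.194 in untreated mutant replicate 2, against 0.008 to 0.109 in the other 16 libraries. Orm3 was at 44.3, 24.7 and 42.2 CPM with metformin, against 81.9, 132 and 73.6 CPM in untreated mutants, again without overlap.

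Hp (haptoglobin) and Hpx (hemopexin) clear free haemoglobin and haem. Hp was at 5423, 4087, 5355, 39984 and 6025 CPM in oxymetholone mutants and Hpx at 12532, 10353, 7943, 68020.2 and 8988 CPM. In both genes 4 of the 5 libraries lay close together and replicate 4 lay far above them. Lcn2, lipocalin-2, which binds bacterial siderophores, ranged from 14.1 CPM in metformin replicate 1 to 4874 CPM in untreated mutant replicate 2. Its ratio to Hp was 0.161 in that untreated mutant library, 0.118 in metformin replicate 4 and 0.088 in oxymetholone replicate 4, against 0.004 to 0.062 elsewhere. Cp, the copper-carrying ferroxidase ceruloplasmin, had a range of 4.28-fold, and Steap4, a metalloreductase, one of 13.2-fold.

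Mt1 and Mt2 encode metallothioneins, small proteins that bind zinc and copper and respond to metals, glucocorticoids and interleukin-6. Mt1 was at 688, 172 and 107 CPM with both drugs, 38.4, 62.9 and 21.7 CPM with metformin and 52.2, 70.8, 442, 2937 and 123 CPM with oxymetholone, against 994, 432 and 212 CPM in untreated mutants and 15.3, 13.4, 646 and 72.4 CPM in wild-type mice. Mt2 was at 26.3, 5.25 and 4.02 CPM with both drugs, 0.895, 0.594 and 0.464 CPM with metformin and 1.28, 2.63, 17.4, 64.6 and 3.71 CPM with oxymetholone, against 34.6, 18.5 and 9.39 CPM in untreated mutants and 0.552, 0.392, 25.7 and 2.66 CPM in wild-type mice. For both genes the metformin libraries lay below those of untreated mutants and below those given both drugs, and the wild-type values overlapped all of these groups. Mt2 rested on 17, 18 and 16 counts in the metformin libraries and on 12 and 11 in wild-type replicates 1 and 2. The ratio of Mt2 to Mt1 was 0.023, 0.009 and 0.021 in metformin mutants, against 0.035, 0.043 and 0.044 in untreated mutants and 0.029 to 0.040 in wild-type mice. With oxymetholone it was 0.025, 0.037, 0.039, 0.022 and 0.030, overlapping the metformin values, and with both drugs 0.038, 0.031 and 0.038. Mt2 was thus far below Mt1 in all 18 libraries, and the reason was not tested.

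**Figure D3:**
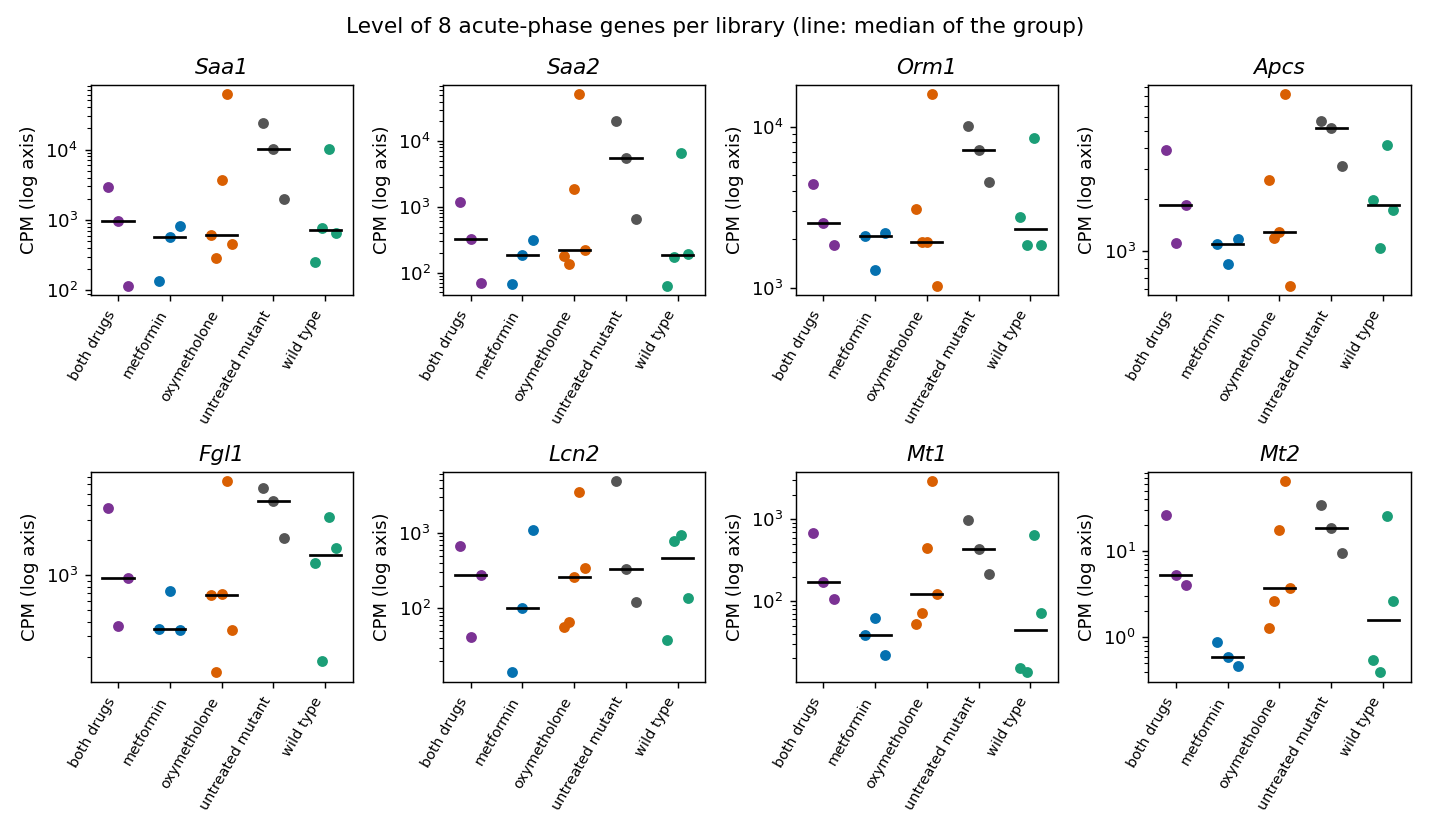
CPM per library (log axis) of Saa1, Saa2, Orm1, Apcs, Fgl1, Lcn2, Mt1 and Mt2 in the 5 groups, with the group median as a line. For all of these but Lcn2, the 3 metformin libraries lie below the 3 untreated mutant libraries, and 1 oxymetholone library and, for Saa1, Saa2, Orm1, Mt1 and Mt2, 1 wild-type library lie far above the rest of their group.

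Fga, Fgb and Fgg encode the 3 chains of fibrinogen, the clotting protein, and they moved together from library to library. Fgb was at 4416, 2645 and 1534 CPM with both drugs, 2452, 4074 and 2599 CPM with metformin and 2835, 1389.7, 3227, 13301 and 1684 CPM with oxymetholone, against 14890.2, 5004 and 3229.7 CPM in untreated mutants and 3594, 1940.2, 5487 and 4833 CPM in wild-type mice. Over 18 libraries the ratio of Fga to Fgb stayed between 0.755 and 1.10 and that of Fgg to Fgb between 0.912 and 1.36, while Fgb itself ranged 10.7-fold. Fgg alone of the chains had every metformin library (3110.1, 3715 and 2778 CPM) below every untreated mutant library (13865, 6319.7 and 4397 CPM). Fgl1, a fibrinogen-like protein secreted by hepatocytes, was at 349, 726 and 339 CPM with metformin, against 5574, 4366 and 2093 CPM in untreated mutants and 1268, 183, 3149.8 and 1722 CPM in wild-type mice. The metformin and untreated mutant values of Fgl1 did not overlap, and the wild-type values overlapped both.

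Among the protease inhibitors, the Serpina3 genes are relatives of human antichymotrypsin. Serpina3n, the inflammation-responsive copy, was at 492, 230.2 and 84.9 CPM with both drugs, 169, 348 and 193 CPM with metformin and 153, 85.8, 555, 1661 and 295 CPM with oxymetholone, against 1851, 226 and 146 CPM in untreated mutants and 208, 268, 329 and 307 CPM in wild-type mice. The same pair of libraries, oxymetholone replicate 4 and untreated mutant replicate 2, stood above all others. Serpina3k did not share this order: it was highest in metformin replicate 1 (10644 CPM), with 7585 CPM in oxymetholone replicate 4 and 4913 CPM in untreated mutant replicate 2, and the ratio of Serpina3n to Serpina3k spanned 0.015 to 0.377. Serpina3m was at 149, 175 and 107 CPM with metformin, below the 322, 184 and 253 CPM of untreated mutants in every library. Itih3 and Itih4, heavy chains of the inter-alpha-trypsin inhibitor family, ranged 9.57-fold and 16.1-fold, and Lrg1, a leucine-rich plasma glycoprotein, 18.5-fold, each highest in oxymetholone replicate 4.

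The sensing and signalling genes differed among themselves in how far they ranged. Lbp, the carrier of bacterial lipopolysaccharide, ranged from 48.2 CPM in oxymetholone replicate 2 to 430.2 CPM in oxymetholone replicate 4. Cd14, the receptor that takes lipopolysaccharide from it, was at 149 CPM in untreated mutant replicate 2, against 3.17 and 4.69 CPM in the other untreated mutants and 1.53 to 47.1 CPM in the other groups. Il1r1, the interleukin-1 receptor, was at 56.9, 19.0 and 46.7 CPM with both drugs, 13.4, 19.0 and 9.68 CPM with metformin and 36.9, 9.34, 18.9, 58.9 and 15.3 CPM with oxymetholone, against 24.2, 20.9 and 16.6 CPM in untreated mutants and 21.2, 10.3, 27.2 and 24.8 CPM in wild-type mice. Its groups were apart in 1 comparison, both drugs against metformin, where the nearest values agree at 19.0 CPM to 3 digits. Il1rn, the antagonist of that receptor, was at 28.7 CPM in replicate 4 of the metformin mutants, at 28.5 CPM in replicate 2 of the untreated mutants and at 16.5 CPM or below elsewhere. Il6ra, which binds interleukin-6, and Stat3, its signal carrier, ranged 8.99-fold and 3.82-fold, and Socs3, the feedback inhibitor of STAT3 signalling, 7.02-fold. C4b, a complement component, ranged 4.91-fold. None of these 4 genes separated any pair of groups compared.

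No acute-phase gene was called in any of the 10 comparisons fitted. The same held with DESeq2 and with limma-voom, and without any single library (0 of 35 called in every comparison under each setting tried). Counts of genes at an unadjusted p under 0.05 and medians over the 35 genes are therefore given as description. The share of all genes at that p was counted in the edgeR fit over all libraries, and not under the other settings.

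Untreated mutants against wild-type mice asked whether the mutation itself moved the programme. Values were higher in untreated mutants for 30 genes and lower for 5, with a median log2 difference of 0.82 over the 35, against -0.02 over all genes. None of the 35 was called (0% of all genes were), and 1 reached an unadjusted p under 0.05 (2.58% of all genes). No gene had every mutant library above or below every wild-type library (2.5% of all genes were higher and 3.82% lower without overlap). The smallest p-values belonged to Saa3 (log2 difference 2.84 ± 1.08, SE), Cd14 (2.37 ± 1.29), Serpina3n (1.41 ± 0.90), Apcs (1.07 ± 0.69), Fgg (0.91 ± 0.64) and Fgb (0.96 ± 0.70), each with an adjusted p of 0.973 by edgeR. Without untreated mutant replicate 2 the median was 0.05, Cd14 and Serpina3n turned to -1.35 and -0.58, and Saa3, Fgg and Fgb were at 0.77, 0.30 and 0.05. Without wild-type replicate 3 the median was 1.08 and 7 genes reached an unadjusted p under 0.05, against 1 or 2 without any other library. The mitochondrial genome took 2.18, 2.60 and 2.04% of counts in untreated mutants, against 2.95 to 3.85% in wild-type mice, and its part in these differences was not tested.

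Metformin mutants had lower values than untreated mutants for most of the programme, with the most negative log2 differences among the metallothioneins and serum amyloid A. Of the 35 genes 32 were lower with metformin and 3 higher (Il6ra, Il6st and Serpina3k), with a median log2 difference of -1.29, against 0.04 over all genes. In 11 genes every metformin library lay below every untreated mutant library, and in none above (3.32% of all genes were lower and 3.94% higher without overlap). These were Saa1, Saa2, Saa4, Orm1, Orm3, Apcs, Fgg, Fgl1, Serpina3m, Mt1 and Mt2. No member was called (0% of all genes were), and 9 of 35 reached an unadjusted p under 0.05, against 5.67% of all genes.

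Among the 9 genes the largest differences were in Saa2 (log2 difference -5.57 ± 2.42, SE, adjusted p = 0.827 by edgeR), Mt2 (-5.02 ± 1.68, adjusted p = 0.607), Saa1 (-4.56 ± 2.02, adjusted p = 0.844), Mt1 (-3.74 ± 1.62, adjusted p = 0.825) and Fgl1 (-3.09 ± 1.25, adjusted p = 0.783). Apcs followed at -2.17 ± 0.78 (adjusted p = 0.668) and Orm1 at -1.97 ± 0.86 (adjusted p = 0.834). The standard errors are drawn in the plot of fitted differences. Without untreated mutant replicate 2 the median was -0.43, with 3 genes at an unadjusted p under 0.05. Without metformin replicate 1 or 3 there were 2 or 3 such genes, and without oxymetholone replicate 4, which enters only through the shared estimate of spread, 14. The count of genes lower without overlap was 18 without metformin replicate 3 (6.04% of all genes), 20 without metformin replicate 4 (7.21%) and 23 without untreated mutant replicate 4 (6.15%). It stayed at 11 without untreated mutant replicate 2, where 11.2% of all genes were lower. It also stayed at 11 without metformin replicate 1 (11.8%) or untreated mutant replicate 3 (4.91%). The mitochondrial share of counts was 3.73, 3.89 and 3.25% in metformin mutants, against 2.18, 2.60 and 2.04% in untreated mutants, and its part was not tested.

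**Figure D4:**
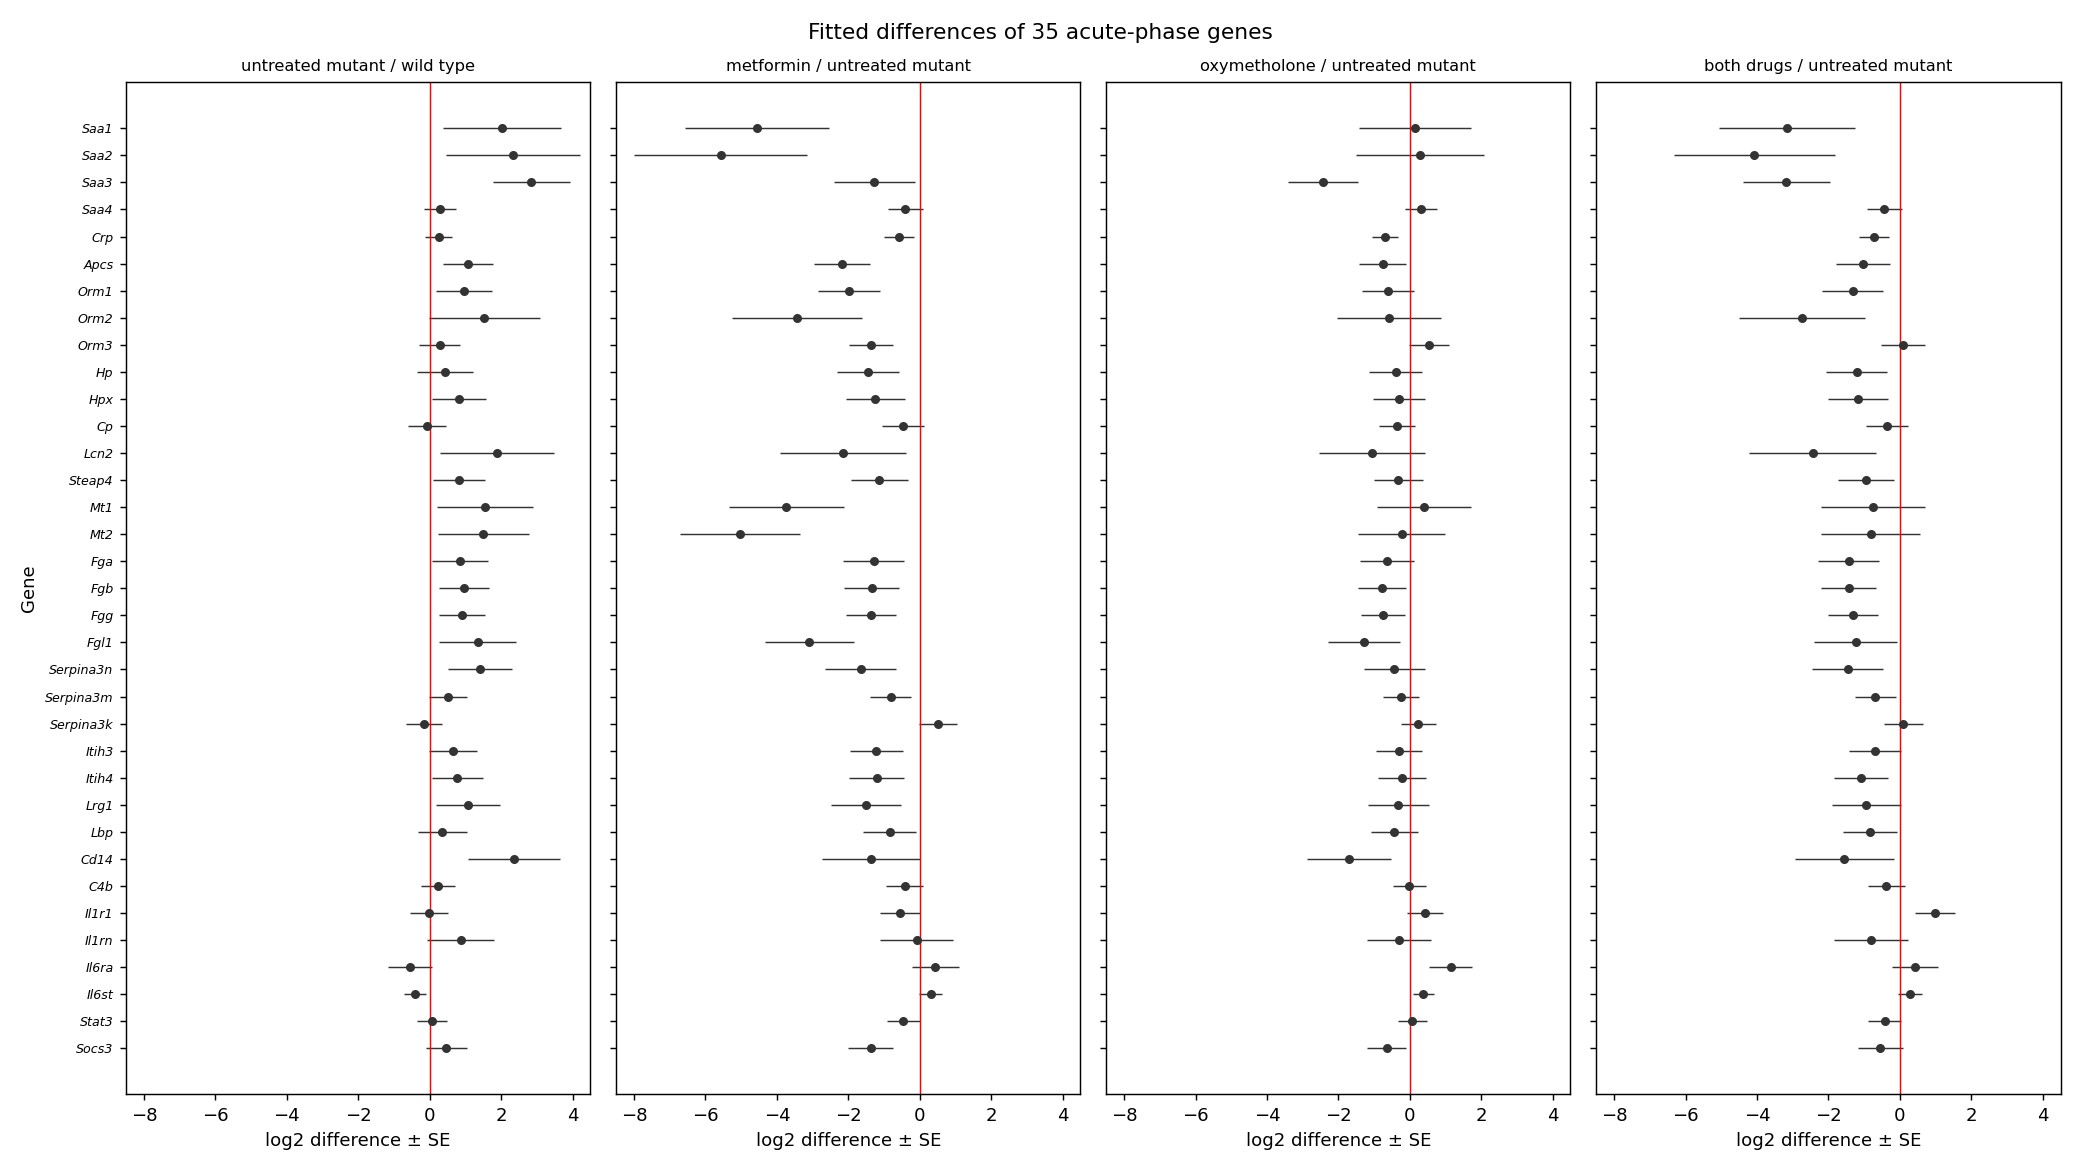
Fitted log2 differences (points) with standard errors (bars) of the 35 acute-phase genes for untreated mutants over wild type and for metformin, oxymetholone and both drugs over untreated mutants. Metformin points lie below 0 for 32 genes with long bars at Saa1, Saa2, Mt1 and Mt2, and no gene passed the test in any panel.

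Oxymetholone mutants gave a mixed picture against untreated mutants. With oxymetholone 25 genes were lower and 10 higher, with a median log2 difference of -0.32, against 0.03 over all genes. None was called, where 0.0434% of all genes were, and 1 reached an unadjusted p under 0.05, against 4.80% of all genes. No member separated the groups (1.87% of all genes were higher and 1.59% lower without overlap). Saa3 had the smallest p (-2.42 ± 0.99, SE), with Crp at -0.70 ± 0.36, Il6ra at 1.15 ± 0.60, Cd14 at -1.70 ± 1.19, Il6st at 0.38 ± 0.29 and Fgl1 at -1.28 ± 1.01, all with an adjusted p of 0.877 by edgeR.

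The direction of this comparison rested on single libraries. Without oxymetholone replicate 4 the median was -1.43 and 18 of 35 genes reached an unadjusted p under 0.05, with a smallest adjusted p of 0.410, against 0 to 2 genes without any other library. Without untreated mutant replicate 2 the median was 0.41, Cd14 turned to 2.02, Saa3 was at -0.35, Crp at -0.29 and Il6st at 0.77. Fgl1 was at -3.12 without oxymetholone replicate 4, and Il6st at 0.16 without untreated mutant replicate 3. The median thus changed sign with the library left out, and no gene was called either way.

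**Figure D5:**
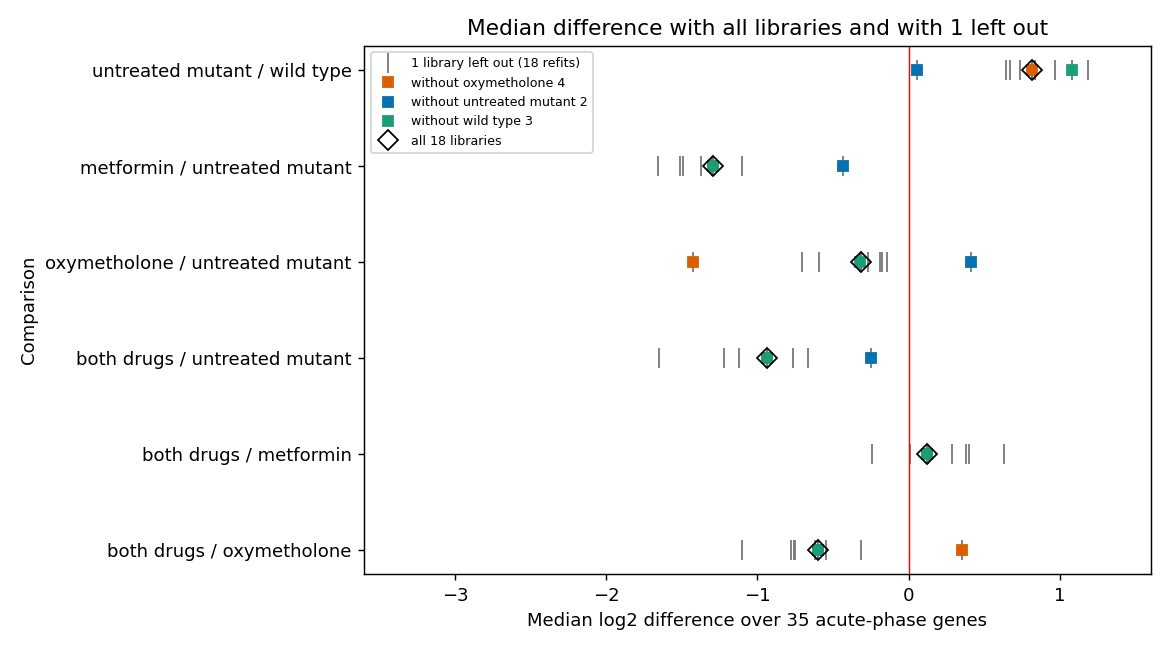
Median log2 difference over the 35 acute-phase genes in 6 comparisons, with all 18 libraries (diamonds) and with each library left out in turn (lines, and squares for oxymetholone replicate 4, untreated mutant replicate 2 and wild-type replicate 3). The oxymetholone comparison runs from -1.43 to 0.41, and the metformin comparison stays below 0 in all 18 refits.

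Mutants given both drugs against untreated mutants had 30 genes lower and 5 higher, with a median log2 difference of -0.94, against 0.00 over all genes. None was called (0.0186% of all genes were), and 1 reached an unadjusted p under 0.05, against 5.46% of all genes. Orm1 was the 1 gene lower in every library, and none was higher in every library (3.95% of all genes were lower and 4.71% higher without overlap). Saa3 stood at -3.18 ± 1.22 (SE, adjusted p = 0.851 by edgeR), Saa2 at -4.08 ± 2.25 (adjusted p = 0.958), Fgb at -1.43 ± 0.77 (adjusted p = 0.950), Fgg at -1.32 ± 0.70 (adjusted p = 0.938), Crp at -0.72 ± 0.41 (adjusted p = 0.966) and Il1r1 at 0.99 ± 0.56 (adjusted p = 0.962). Without untreated mutant replicate 2 the median was -0.25 with no gene at an unadjusted p under 0.05, and without replicate 1 of the mice given both drugs it was -1.65. Without untreated mutant replicate 2 Saa3 was at -1.11, Saa2 at -2.55, Fgb at -0.52, Fgg at -0.71 and Crp at -0.31. Without oxymetholone replicate 4 there were 7 genes at an unadjusted p under 0.05, without untreated mutant replicate 4 there were 4 and without replicate 3 of the mice given both drugs 0. Genes lower without overlap numbered 18 without replicate 1 of the mice given both drugs (7.49% of all genes). They numbered 14 without untreated mutant replicate 4 (8.35%) and 4 without untreated mutant replicate 3 (5.52%). The count was 1 without replicate 2 (8.04%) or 3 (9.22%) of the mice given both drugs. It was also 1 without untreated mutant replicate 2 (13.9%). The drug comparisons share the untreated mutant libraries.

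Set against metformin alone, the addition of oxymetholone gave 24 genes higher and 11 lower, with a median log2 difference of 0.12. Mt1, Mt2 and Il1r1 were higher in every library given both drugs than in every metformin library, and no gene was lower in every library (2.24% of all genes were higher and 2.15% lower without overlap). Il1r1 differed by 1.54 ± 0.57 and Mt2 by 4.20 ± 1.63 (SE), each with an adjusted p of 0.999 by edgeR. None was called (0% of all genes were), with 3 at an unadjusted p under 0.05, against 3.43% of all genes. There were 0 such genes without replicate 1 of the mice given both drugs and 1 without metformin replicate 4. Genes higher without overlap numbered 10 without replicate 3 of the mice given both drugs (5.91% of all genes) and 8 without metformin replicate 4 (5.54%). They numbered 5 without replicate 2 of the mice given both drugs (5.45%) or metformin replicate 3 (5.61%). The count was 3 without replicate 1 of the mice given both drugs (5.32%) or metformin replicate 1 (10.5%).

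Set against oxymetholone alone, the addition of metformin gave 4 genes higher and 31 lower, with a median log2 difference of -0.60. None was called (0% of all genes), and 0 were at an unadjusted p under 0.05 (2 by DESeq2, 0 by limma-voom). Over all genes 2.86% were at that p by edgeR. Saa2 was at -4.35 ± 2.21 and Saa1 at -3.30 ± 1.83 (SE), each with an adjusted p of 0.956 by edgeR. Without oxymetholone replicate 4 the median was 0.36, Saa1 was at 0.10, Saa2 at -0.18 and 2 genes reached an unadjusted p under 0.05.

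The interaction, the difference between the effect of metformin with oxymetholone and without it, was positive for 29 genes and negative for 6, with a median of 0.64 on the log2 scale. None was called (0% of all genes), and 1 was at an unadjusted p under 0.05, against 2.997% of all genes by edgeR. Mt2 was at 4.42 ± 1.97 and Fgl1 at 3.13 ± 1.56 (SE), each with an adjusted p of 0.863 by edgeR, and Fgl1 was at 4.97 without oxymetholone replicate 4 and 1.76 without replicate 1 of the mice given both drugs. The median was 1.63 without oxymetholone replicate 4, with 14 genes at an unadjusted p under 0.05, and -0.22 without untreated mutant replicate 2, with 0.

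Each treated group was also set against wild-type mice. Over all genes 4.48, 4.51 and 6.89% were at an unadjusted p under 0.05 by edgeR with metformin, oxymetholone and both drugs. Metformin mutants had 31 genes lower and 4 higher (median log2 difference -0.43), with none called (0% of all genes), 1 at an unadjusted p under 0.05, and Crp alone lower in every library (1.83% of all genes were higher and 1.86% lower without overlap). Genes lower in every library numbered 7 without wild-type replicate 2 (4.72% of all genes), 6 without metformin replicate 3 (11.9%) and 4 without metformin replicate 4 (4.54%). The count was 1 without metformin replicate 1 (8.21%). It was also 1 without wild-type replicate 1 (3.06%), 3 (2.66%) or 4 (2.31%). Mt2 was at -3.52 ± 1.56 and Orm3 at -1.10 ± 0.59 (SE), both with an adjusted p of 0.9999 by edgeR. Without wild-type replicate 3 they were at -0.91 and -0.43, and the median was -0.18. Oxymetholone mutants had 30 genes higher and 5 lower (median 0.42), with none called (0.0993% of all genes) and 0 at an unadjusted p under 0.05 by edgeR, DESeq2 and limma-voom. Without oxymetholone replicate 4 this median was -0.45, and 4 genes reached an unadjusted p under 0.05, as did 5 without wild-type replicate 3. Mutants given both drugs had 9 genes higher and 26 lower (median -0.15), against 18 and 17 without wild-type replicate 3 (median 0.03) and 19 and 16 by limma-voom (median 0.01), with none called (0.0248% of all genes) and 0 at an unadjusted p under 0.05 by all 3 tools, Il1r1 being at 0.97 ± 0.52 (SE, adjusted p = 0.746 by edgeR).

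Genes of the wider pathway were read from lists written for this tissue. Of the cytokines and NF-kB signalling genes 28 of 30 were measured, of interleukin-6 and STAT3 signalling 25 of 26, of other positive acute-phase genes 32 of 34, of negative acute-phase genes 21 of 21, and of metal and glucocorticoid responses 17 of 18. None of these genes was called in any of the 10 comparisons by edgeR. Of the other positive acute-phase genes 21 were higher and 11 lower in untreated mutants than in wild type (median log2 difference 0.15), 6 higher and 26 lower with metformin (-0.37), 18 higher and 14 lower with oxymetholone (0.03) and 11 higher and 21 lower with both drugs (-0.31), each of these against untreated mutants. Vnn1, a pantetheinase, was at 27.1, 40.7 and 22.3 CPM with both drugs and 19.6, 13.8 and 32.3 CPM with metformin, against 5.65, 13.0 and 7.96 CPM in untreated mutants. Its groups did not overlap, and its log2 difference was 1.76 ± 0.44 (SE, adjusted p = 0.509 by edgeR) with both drugs and 1.31 ± 0.43 (adjusted p = 0.595) with metformin.

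Of cytokine and NF-kB genes 11 were higher and 17 lower in untreated mutants than in wild type (median log2 difference -0.04), 12 and 16 with metformin (-0.05), 16 and 12 with oxymetholone (0.01) and 8 and 20 with both drugs (-0.15). Ikbkb, a kinase that activates NF-kB, was lower without overlap in every drug group than in untreated mutants (53.9, 41.1 and 42.9 CPM). It was at 37.7, 35.3 and 28.3 CPM with metformin (adjusted p = 0.777 by edgeR). With both drugs it was at 33.6, 31.6 and 33.5 CPM (adjusted p = 0.840 by edgeR). Oxymetholone mutants were at 31.3, 31.3, 40.9, 38.9 and 38.1 CPM (adjusted p = 0.877 by edgeR), and wild-type mice at 40.8, 47.8, 42.4 and 46.4 CPM. Interleukin-6 and STAT3 genes were 13 higher and 12 lower in untreated mutants (0.02), 12 and 13 with metformin (-0.0036), 16 and 9 with oxymetholone (0.13) and 10 and 15 with both drugs (-0.15). Cebpd, which encodes a C/EBP factor of the acute-phase response, was at 17.5, 15.1, 10.3, 33.8 and 28.0 CPM with oxymetholone, against 7.39, 5.09 and 11.4 CPM in untreated mutants, and overlapped by 1 library (log2 difference 1.40 ± 0.43, SE, adjusted p = 0.659 by edgeR).

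Negative acute-phase genes were 6 higher and 15 lower in untreated mutants than in wild type (median log2 difference -0.14), 7 and 14 with metformin (-0.16), 15 and 6 with oxymetholone (0.19) and 11 and 10 with both drugs (0.03). Against wild type, 1 was higher and 20 lower with metformin (-0.29), where 52.8% of all genes were higher. The counts against wild type were 10 and 11 with oxymetholone (-0.01) and 9 and 12 with both drugs (-0.13). Metal and glucocorticoid genes were 6 higher and 11 lower in untreated mutants (-0.06), 8 and 9 with metformin (-0.04), 13 and 4 with oxymetholone (0.47) and 12 and 5 with both drugs (0.32). Fkbp5, a glucocorticoid- and androgen-responsive cochaperone, was at 24.7, 11.5, 34.5, 96.0 and 79.1 CPM with oxymetholone, against 13.6, 4.65 and 8.84 CPM in untreated mutants. Its groups overlapped in 1 library (log2 difference 2.44 ± 0.80, SE, adjusted p = 0.727 by edgeR).

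Markers of other cell types moved with some of the libraries that led the acute-phase genes. Summed over 11 of 12 neutrophil markers, wild-type replicate 3 was at 457 CPM, against 5.16 to 76.3 CPM in the other 17 libraries, with S100a8 at 131 and S100a9 at 157 CPM. The neutrophil sum ran from 7.04 to 35.2 CPM with both drugs, 5.16 to 27.0 CPM with metformin, 7.71 to 76.3 CPM with oxymetholone, 16.4 to 51.8 CPM in untreated mutants and 9.62 to 457 CPM in wild-type mice, so groups overlapped. Over 7 of 8 bile duct markers, untreated mutant replicate 2 was at 1466 CPM, of which Spp1 made 1440.1 CPM, and oxymetholone replicate 4 at 423 CPM, of which Spp1 made 414 CPM, while metformin replicate 3 and replicate 3 of the mice given both drugs, where the 35 genes took 5.43 and 4.24% of counts, were at 659 and 670.5 CPM. Spp1 made 621 CPM of the last of these sums. In oxymetholone replicate 4 Krt19 was at 0.974 and Epcam at 0.893 CPM, whereas in metformin replicate 3 Krt19 was at 237, Muc1 at 155 and Epcam at 43.1 CPM. The lowest bile duct sums were 52.3 CPM with both drugs, 34.997 CPM with metformin, 43.5 CPM with oxymetholone, 61.1 CPM in untreated mutants and 50.1 CPM in wild-type mice. Macrophage markers (9 of 9) summed to 474 CPM in oxymetholone replicate 4 and 415 CPM in wild-type replicate 3, within the 66.3 to 502 CPM of all libraries. Monocyte markers (4 of 4, 102 to 556 CPM), T and B cell markers (6 of 7, 1.01 to 8.58 CPM), stellate and fibroblast markers (6 of 6, 21.8 to 324 CPM) and endothelial markers (5 of 5, 30.5 to 79.8 CPM) were highest in other libraries. The mitochondrial genome gave 1.77% of counts in oxymetholone replicate 4 and 2.18% in untreated mutant replicate 2, within the 1.54 to 8.19% of all libraries. The part of these cells in the acute-phase levels was not tested.

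The authors' deposited table of 7 comparisons also held no acute-phase gene at an adjusted p of 0.05 or below. Of all 16115 genes, 47 passed that threshold there for oxymetholone over untreated mutants and 0 in each other comparison. Shares of all genes at an unadjusted p under 0.05 were not counted for the deposited values. The deposited interaction was positive for 30 genes and negative for 5 (median 0.67), the direction of the edgeR fit (29 and 6). In the authors' deposited table untreated mutants over wild type had 31 genes higher and 4 lower (median log2 fold change 0.81), with 11 at an unadjusted p under 0.05. For metformin over untreated mutants the authors' deposited table gave 8 higher and 27 lower (median -0.36), with 0 at an unadjusted p under 0.05, where the edgeR fit gave 9. For oxymetholone over untreated mutants the authors' deposited table gave 6 higher and 29 lower (median -0.90), with 16 at an unadjusted p under 0.05 and a smallest adjusted p of 0.177, for Crp. Both drugs over untreated mutants had 6 higher and 29 lower in the authors' deposited table (median -0.46), with 4 at an unadjusted p under 0.05. Both drugs over metformin had 14 higher and 21 lower in the authors' deposited table (median -0.21), the opposite direction to the 24 and 11 of the edgeR fit. For both drugs over oxymetholone the authors' deposited table gave 31 higher and 4 lower (median 0.40), the opposite direction to the 4 and 31 of the edgeR fit with all libraries and the same sign as the median of 0.36 without oxymetholone replicate 4.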

How the data were processed

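Liver RNA of 18 libraries was read from 1 table of 16115 genes. The authors deposited whole-number counts per gene, without normalization, per the file headers. A deposited CPM signal equals edgeR's TMM-scaled CPM computed here from those counts. Deposited log2 residuals, whose making is not given in the sources used here, were not used. The authors also deposited log2 fold changes with p-values and adjusted p-values for 7 comparisons, quoted only where named. The submitters' processing notes name GRCm39 as the genome build. For the aligner, the counter, the strand setting and the authors' statistics, names and versions were not given in the sources used here. Promoter windows of RefSeq on GRCm38.p6 served for sequence only.

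Counts were scaled by TMM and passed through filterByExpr, which kept all 16115 genes. They were fitted over 18 libraries with 1 coefficient per group by edgeR's robust quasi-likelihood method (edgeR 4.0.16, R 4.3.3), and p-values were adjusted over all genes by Benjamini-Hochberg. Log2 CPM used a prior count of 2. The procedure was tested on simulated counts. Alternatives were DESeq2 1.42.0, DESeq2's size factors in edgeR, other filters on low counts, the compared groups alone, limma-voom (limma 3.58.1) with quality weights, and leaving out libraries. Counts under alternatives of genes without overlap or at an unadjusted p under 0.05 were added after seeing the data. The 35 genes and the lists beside them were chosen with earlier results of these data known. All 35 are named. Of the other lists the text names at most the 2 genes with the smallest p in a comparison, and markers as levels. Replicate numbers follow the order of the sample records and pair nothing.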

Additional observations from a re-analysis of the deposited data

Results flagged for a closer look

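Levels formed 70 sets in groups of 4 or 5 libraries (35 genes in the oxymetholone and wild-type groups). Of these, 27 held a library whose gap to its nearest neighbour was past Dixon's limit on the CPM scale. For normally distributed values chance gives about 1 in 20, or 3.5. CPM values of such wide range need not be normally distributed, so 3.5 is not a firm expectation here. The tests are not independent, since 2 libraries account for all 27. Oxymetholone replicate 4 stood apart in 20 genes. Among serum amyloid, pentraxin and acid glycoprotein genes it was at 60444 CPM in Saa1, 51151 in Saa2, 8151 in Apcs, 15812 in Orm1, 2487 in Orm2 and 281 in Orm3. Among fibrinogen genes it was at 14689.9 CPM in Fga, 13301 in Fgb, 14091 in Fgg and 6391 in Fgl1. For metal- and haem-binding proteins the levels were 39984 CPM in Hp, 68020.2 in Hpx, 3508 in Lcn2, 2445 in Cp, 953 in Steap4, 2937 in Mt1 and 64.6 in Mt2. The remaining 3 were 3413 CPM in Itih3, 430.2 in Lbp and 4546 in Lrg1.

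Wild-type replicate 3 stood apart in 7 genes, at 10016 CPM in Saa1, 6579 in Saa2, 8531 in Orm1, 932 in Orm2, 1714 in Itih3, 646 in Mt1 and 25.7 in Mt2. On the log2 scale, checked for these 27 alone, 4 remained past the limit: Hp, Hpx and Cp in oxymetholone replicate 4 and Itih3 in wild-type replicate 3. Groups of 3 libraries, which include the untreated mutants, were not tested this way.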

How the results depend on the processing

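No acute-phase gene was called under any setting. Median log2 differences moved by more than the spread of the library medians (SD 0.83) only without single libraries: without oxymetholone replicate 4 to -1.43 (oxymetholone over untreated mutant), 0.36 (both drugs over oxymetholone), -0.45 (oxymetholone over wild type) and 1.63 (interaction), and without untreated mutant replicate 2 to -0.43 (metformin over untreated mutant) and -0.22 (interaction). With 1 library left out the medians ran from 0.05 to 1.19 (untreated mutant over wild type), -1.66 to -0.43 (metformin over untreated mutant), -1.43 to 0.41 (oxymetholone over untreated mutant), -1.65 to -0.25 (both over untreated mutant), -0.24 to 0.63 (both over metformin), -1.10 to 0.36 (both over oxymetholone), -0.68 to -0.18 (metformin over wild type), -0.45 to 0.72 (oxymetholone over wild type), -0.67 to 0.03 (both over wild type) and -0.22 to 1.63 (interaction). The cause was not tested.

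Genes at an unadjusted p under 0.05 numbered 14 with the compared groups alone, 4 with limma-voom and 3 without metformin and combination replicates 3 for metformin over untreated mutant (9 in the fit over 18 libraries), and 4 with DESeq2 and 5 with the compared groups alone for both drugs over untreated mutant (1 in that fit). With limma-voom medians were 0.24, -0.70, -0.19 and -0.20 for the genotype, metformin, oxymetholone and combination comparisons, and Cd14 (-0.44) and Serpina3n (-0.26) in untreated mutants over wild type and Cd14 (1.25) with oxymetholone over untreated mutants reversed. With 1 library left out, Cd14 ran from -1.35 to 3.10 and from -2.65 to 2.02 in the same comparisons and Serpina3n from -0.58 to 1.90, reversed without untreated mutant replicate 2, and Saa1 ran from -4.61 to 0.10 (both over oxymetholone) and Mt1 from -0.12 to 4.43 (oxymetholone over wild type), reversed without oxymetholone replicate 4.

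Over all genes, DESeq2 called 11 with metformin, 78 with oxymetholone and 43 with both drugs over untreated mutants, 10 for both over metformin, 1 for both over oxymetholone, 3 for the interaction, and 49, 89 and 70 for metformin, oxymetholone and both over wild type (edgeR 0, 7, 3, 0, 0, 0, 0, 16 and 4). Limma-voom called 19 (oxymetholone) and 16 (both) over untreated mutants, 3 (both over metformin), and 43 (oxymetholone) and 35 (both) over wild type. The compared groups alone gave 0 for both over untreated mutant, 25 and 1 for oxymetholone and both over wild type. Leaving out metformin replicate 3 and combination replicate 3 together gave 15 (oxymetholone) and 5 (both), and leaving out 1 library gave at most 67 (metformin over wild type, without metformin replicate 1). Size factors and filters moved no count past 1.5 times. No paired analysis was possible because the labels carry no replicate numbers. Depth limits Mt2, at 11 to 18 counts in 5 libraries.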

Other observations

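Serpina1e, which encodes a copy of alpha-1-antitrypsin and is among the other positive acute-phase genes, was at 14474 CPM in oxymetholone replicate 3 and at 17.4 to 67.0 CPM in the other 17 libraries. Serpina1a, Serpina1b, Serpina1c and Serpina1d were also highest in that library, at 3465, 6859, 2391 and 2994 CPM. The handling of reads shared between genes is not given, so the split among these copies is uncertain. Oxymetholone replicate 3 was at 3637 CPM in Saa1 and 112 CPM in Orm2, below oxymetholone replicate 4 in both. It also had the highest mitochondrial share, 8.19% of counts, against 1.54 to 3.89% in the other 17 libraries.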
